A study of Homo sapiens with 9 samples.

Results

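Germ cell and meiosis genes are a set of 35 genes that act in the ovary and testis, and they were followed here in HT-29, a line of human colon adenocarcinoma cells. The set was a fixed list of symbols covering germ cell regulators, the piRNA pathway, the synaptonemal complex, meiotic cohesin and meiotic recombination. On the Affymetrix U133 Plus arrays 34 of the 35 had a probe set, out of 19775 genes in all, and the exception was STRA8, which starts meiosis in response to retinoic acid. The 34 genes had 53 probe sets, and each gene was read from the 1 probe set whose mean signal was highest. The cultures received the DMSO vehicle (0 µM), 5 µM or 10 µM 5-aza-deoxycytidine (5-Aza), a cytidine analog that traps DNA methyltransferases and so lowers DNA methylation as cells divide. Each of the 3 groups held 3 replicate cultures of this 1 line, with 1 array per culture, and nothing else was varied between the groups.

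Germ cells carry RNA-binding proteins and piRNAs, small RNAs that guide PIWI proteins to silence transposons, and in meiosis they pair their chromosomes along a protein axis held by cohesin and the synaptonemal complex. In other tissues most of these genes are silent. Many of them have promoters rich in CpG that are methylated outside the germ line, and repressors such as E2F6 and the maintenance methyltransferase DNMT1 are known to keep a number of them off.

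Signals are given on a log2 scale, on which 1 unit is a doubling, and levels of different genes are not compared because each probe set binds with its own strength. The floor used below is the median of all probe sets of an array, which lay between 5.07 and 5.52. A gene was tested when all 3 arrays of at least 1 group reached that floor, which held for 11756 genes and for 13 of the 34 germ cell genes. Calls were made by limma where the p adjusted after Benjamini-Hochberg did not exceed 0.05 and the change was above 2-fold. Where all arrays of a group lay below the floor, the fold is a bound against the floor and is given as at least so many fold. The 3 arrays per group limit the precision of every value. The arrays measured total RNA of a culture, so a higher signal in every cell and a larger share of expressing cells cannot be told apart.

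The RNA controls and the markers of the line were read first. The 3' minus 5' signal of actin, a measure of RNA integrity, was 2.09 ± 0.19 (log2, SD, n = 3), 2.59 ± 0.10 and 2.98 ± 0.17 at 0, 5 and 10 µM, and that of GAPDH was 0.192 ± 0.064, 0.318 ± 0.016 and 0.572 ± 0.113. Both rose with dose, and their part in the results below was not tested beyond a fit with the actin measure as a covariate. The actin values of the groups did not overlap (1.914 to 2.286, 2.494 to 2.689 and 2.84 to 3.165). Dose and this measure cannot be told apart, so calls kept or lost with the covariate do not separate them. Of 15 markers of colon epithelium 13 were tested, among them EPCAM (13.61 ± 0.04 at 0 µM) and KRT20 (13.81 ± 0.04), whereas the transcription factors CDX1 and CDX2 lay below the floor on all 9 arrays. Between 12 and 13 of the 15 reached the floor on each array. At 5 µM CEACAM5 was called higher (log2 difference 1.67) and KRT19 and GPA33 lower (-1.54 and -1.74), and at 10 µM KRT8 and KRT19 were lower than in the vehicle (-1.05 and -1.37). The summed linear signal of the list was 100124 to 104211 at 0 µM, 73757 to 82263 at 5 µM and 66212 to 75205 at 10 µM, and its part in the germ cell results was not tested. Of 10 fibroblast markers, 3 were tested, and all 3 were higher at 5 µM (COL6A3, COL1A1 and LUM), against 8.6% of all tested genes. COL6A3 lay below the floor in every vehicle culture (mean 2.23) and entered the test only through treated arrays. This count is therefore no support for a response of the list. The fibroblast list's summed linear signal was 300 to 413 at 0 µM, 1193 to 1219 at 5 µM and 676 to 805 at 10 µM, and its part was not tested either.

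In the vehicle most germ cell genes lay under the floor. Of the 34 genes, 29, 28 and 29 were below the array median on the 3 vehicle arrays. At 5 µM the number below fell to 19, 21 and 22, and at 10 µM it stood at 29, 27 and 27. Over all genes on the array the share hardly moved, with 39.5% to 41.4% of them below the median on every array. The summed linear signal of the 34 genes was 667 to 782 in the vehicle, 3230 to 3468 at 5 µM and 1006 to 1284 at 10 µM, so the 5 µM arrays stood apart from both other groups and the 10 µM arrays also lay above all vehicle arrays. Such a sum is weighted to the brightest probe sets and does not describe every gene. At 5 µM the brightest were those of MAEL, SYCP3 and DAZL (log2 means 9.60, 8.60 and 8.39).

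**Figure D1:**
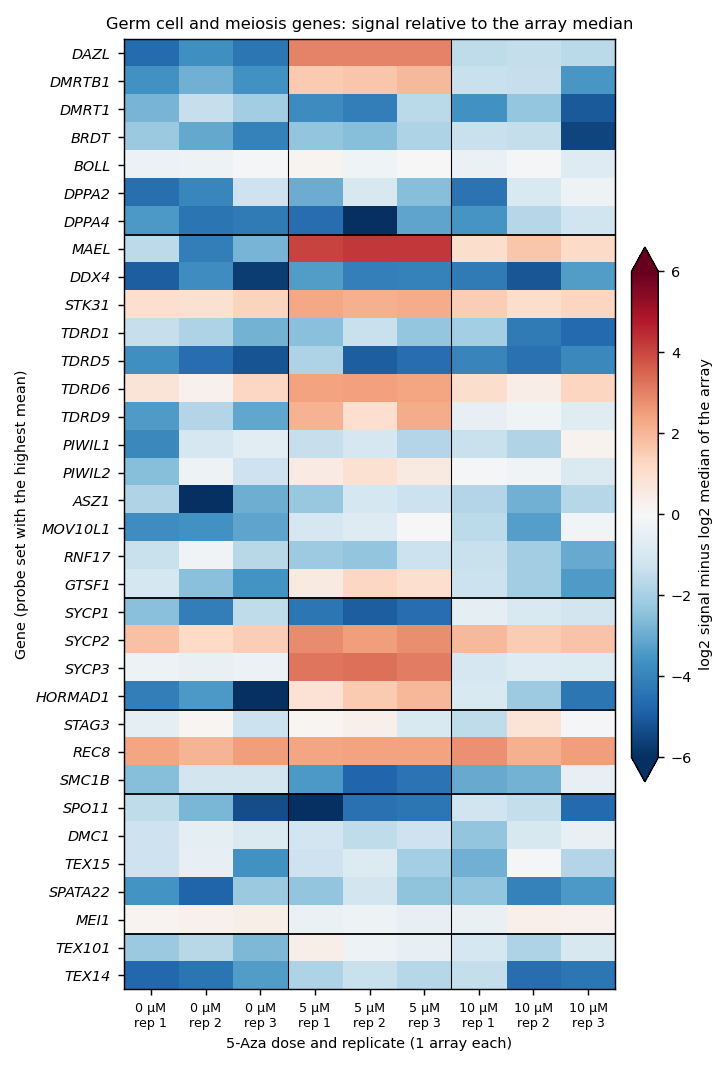
Log2 signal minus the log2 median of the array for the 34 germ cell and meiosis genes (rows, grouped by role between the black lines) on each of the 9 arrays (columns, grouped by 5-Aza dose in µM). White is the array median, red is above and blue is below, and 12 genes reach the median on all 3 arrays at 5 µM against 5 at 0 µM and 5 at 10 µM.

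On all 9 arrays, 17 of the 34 genes stayed below the median, against 31.6% of all genes on the array. At the other end 4 genes reached it on every array, namely SYCP2, STK31, TDRD6 and REC8. Another 8 genes were under the floor in every vehicle culture and at or above it in every 5 µM culture, a pattern that 1.67% of all genes had. These were DAZL, MAEL, SYCP3, HORMAD1, DMRTB1, TDRD9, GTSF1 and PIWIL2. At 10 µM 7 of the 8 were again below the floor on all arrays, MAEL being the exception, whereas 27% of the 330 genes with the same pattern over the whole array did so.

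Which of these genes responded to the lower dose was asked by comparing 5 µM 5-Aza with the vehicle. With these thresholds, 11 of the 13 tested genes were higher by limma and 0 were lower, where the shares over all tested genes were 8.6% and 1.32%. None of the 13 was lower at an unadjusted p under 0.05 (0 of 13) or by the methods' t-test, which called 10 higher. Of the 13, 7 entered the test only because of their signal at 5 µM, and MAEL only through its 5 and 10 µM arrays. These 8 were below the floor in every vehicle culture and so had to differ. Their number is therefore no support for a response of the set. Without any filter, 13 of the 34 genes were higher and 0 lower, against 5.7% higher and 0.996% lower over all 19775 genes. The other 2 of these 13 were MOV10L1 and TEX101, described below. With the actin measure as a covariate 7 of the 11 calls remained, those for DAZL, MAEL, SYCP3, HORMAD1, DMRTB1, TDRD9 and GTSF1. The 3 values at 5 µM lay above all 3 vehicle values for 17 of the 34 genes and below them for 2, against 22.8% and 17% of all genes.

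The comparison of 10 µM with 5 µM asked whether the higher dose changed them further. Of the 13 tested genes 8 were lower at 10 µM by limma and 0 were higher, against 2.08% and 0.264% of all tested genes. DAZL, SYCP3, HORMAD1, DMRTB1, TDRD9 and GTSF1, which are among the 8, had entered the test only through their 5 µM signal and so had to lie lower at 10 µM, which makes the count no support for a fall of the set. At an unadjusted p under 0.05, 10 were lower and 1, MEI1, was higher. Without the filter 3 of the 34 genes were lower, DAZL, SYCP3 and DMRTB1, and 1 higher, against 0.85% and 0.182% of all 19775 genes. The calls for MAEL, HORMAD1, TDRD6, TDRD9 and GTSF1 were lost without it (limma, adjusted p = 0.0553, 0.107, 0.0765, 0.0554 and 0.0700). The count of 8 also became 3 by the methods' t-test, 3 without replicate 3 of 5 µM and 2 with the actin covariate, and the genes called under each of these included DAZL and SYCP3. The calls for HORMAD1 and TDRD6 were lost when any 1 array of 5 µM was left out (for HORMAD1 also without replicate 2 or 3 of 10 µM), that for GTSF1 without replicate 2 or 3 of 5 µM or replicate 3 of 10 µM, and those for MAEL and TDRD9 without replicate 3 of 5 µM. The 3 values at 10 µM lay below all 3 values at 5 µM for 12 of the 34 genes and above them for 2, where 13.3% of all genes did either. Against the vehicle, 4 genes were called higher at 10 µM and 0 lower, against 6.08% and 1.5% of all tested genes. At an unadjusted p under 0.05, 8 were higher and 0 lower, the methods' t-test called 3 higher and 0 lower, and with the actin covariate 0 were called, although the fitted log2 differences of the 4 were 2.62 to 5.34 with it and 1.60 to 4.42 without it. Without the filter 3 were higher and 0 lower, against 3.69% and 0.991% of all 19775 genes. For 3 of the 4 (DAZL, TDRD9 and DMRTB1) both groups lay below the floor, so no fold is given, and only MAEL was measured above the floor. These 4 lay below the floor in every vehicle culture and entered the test only through treated arrays. Their number is therefore no support for a response of the set at 10 µM. The call for DMRTB1, whose values at 10 µM overlapped those of the vehicle, was also lost without any 1 array of 0 or 5 µM, without replicate 1 or 2 of 10 µM, and under most other alternatives, among them no filter, quantile normalization and the methods' t-test.

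**Figure D2:**
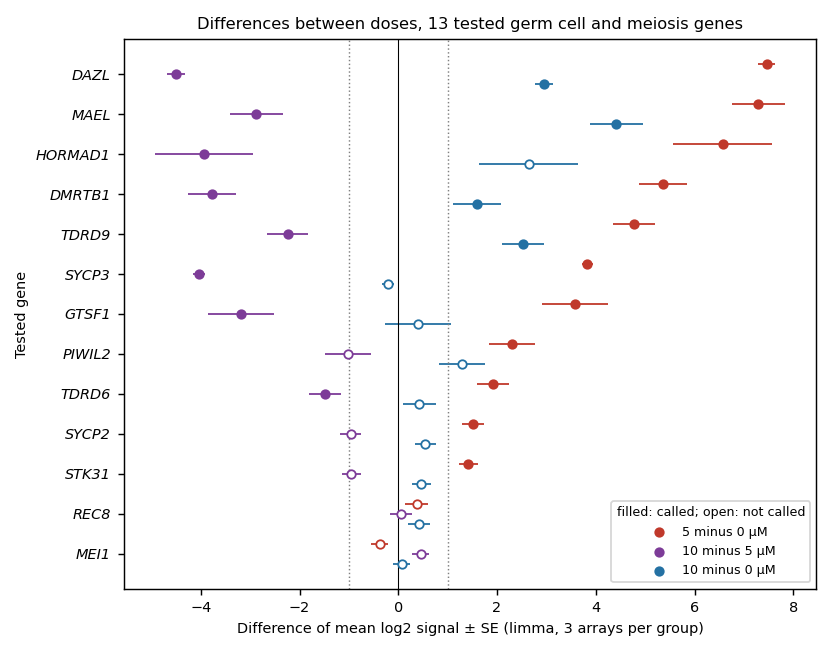
Difference of mean log2 signal between doses (x axis) for the 13 tested germ cell genes (y axis), with the standard error of limma as bars. Red is 5 minus 0 µM, purple 10 minus 5 µM and blue 10 minus 0 µM, filled points are called, open points are not, and the dotted lines mark a 2-fold change. All 8 filled purple points lie left of 0, and the 11 filled red points lie right of it. Differences of genes below the floor in 1 group are fitted values and not bounds.

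Among the germ cell RNA-binding proteins and transcription factors, 2 of 7 were tested, DAZL and DMRTB1. Both entered the test only through their 5 µM signal, so their shared peak at 5 µM was set by the filter and says nothing about the group. DAZL, an RNA-binding protein that controls translation in germ cells, had log2 signals of 0.58, 1.38 and 0.85 in the vehicle, of 8.39, 8.38 and 8.41 at 5 µM and of 3.96, 3.81 and 3.89 at 10 µM. The 3 groups did not overlap, and only the 5 µM arrays were above the floor. DAZL was at least 9.50-fold higher at 5 µM than in the vehicle (limma, adjusted p = 1.85e-07), and from 5 to 10 µM its signal dropped at least 7.85-fold (adjusted p = 7.08e-06). DMRTB1, a DM-domain transcription factor of the testis, was at 1.58, 2.17 and 1.54 in the vehicle, at 6.95, 7.06 and 7.38 at 5 µM and at 4.16, 3.88 and 2.04 at 10 µM. It was at least 3.95-fold higher at 5 µM (adjusted p = 0.000102) and dropped at least 3.26-fold from 5 to 10 µM (adjusted p = 0.00378).

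The other 5 genes of that group were not tested. BOLL, a relative of DAZL with the same kind of RNA-binding domain, stayed close to the floor, with 4.83, 4.77 and 5.11 in the vehicle, 5.58, 5.14 and 5.38 at 5 µM and 5.08, 5.18 and 4.76 at 10 µM. Its 5 µM values lay above all vehicle values, but only 1 of the 9 reached the median. DMRT1, a DM-domain factor that guides testis development, BRDT, a bromodomain protein of spermatocytes, and DPPA2 and DPPA4, DNA-binding partners of early embryo and germ cells, were below the median on all 9 arrays.

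The piRNA pathway and germ granule genes formed the largest group, with 13 genes on the array and 6 tested. All 6 were higher at 5 µM, and 4 of them were lower at 10 µM than at 5 µM, where the shares over all tested genes were 8.6% and 2.08%. TDRD9, GTSF1 and PIWIL2 entered the test only through their 5 µM signal, and MAEL only through its 5 and 10 µM arrays. These counts are therefore no support for a response of the group. MAEL, which acts in transposon silencing in the germ granule, had log2 signals of 3.61, 0.93 and 2.38 in the vehicle, 9.44, 9.67 and 9.67 at 5 µM and 6.56, 6.93 and 6.67 at 10 µM. It was the single gene of the set to cross from below the floor in the vehicle to above it at both doses. The rise at 5 µM was at least 21.8-fold (limma, adjusted p = 3.55e-05), the difference of 10 µM from the vehicle at least 2.98-fold (adjusted p = 0.000785), and the signal at 10 µM was 7.34-fold lower than at 5 µM (adjusted p = 0.0121, but 0.0553 without the filter).

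TDRD9, a Tudor-domain helicase of the piRNA pathway, was at 1.81, 3.32 and 2.07 in the vehicle, at 7.48, 6.41 and 7.63 at 5 µM and at 5.01, 5.00 and 4.77 at 10 µM. Only its 5 µM values lay above the floor, and the groups did not overlap. It was at least 4.08-fold higher at 5 µM (adjusted p = 8.91e-05) and dropped at least 3.37-fold from 5 to 10 µM (adjusted p = 0.0121, but 0.0554 without the filter). GTSF1, a zinc finger partner of PIWI proteins, was at 4.16, 2.56 and 1.58, then at 5.96, 6.66 and 6.44, and at 10 µM at 4.22, 3.15 and 2.14. Its vehicle and 10 µM values covered nearly the same range, with a difference of 0.40 ± 0.67 (SE, adjusted p = 0.668). The gene was at least 2.31-fold higher at 5 µM than in the vehicle (adjusted p = 0.00419) and dropped at least 1.91-fold from 5 to 10 µM (adjusted p = 0.0173, but 0.0700 without the filter).

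PIWIL2, one of the PIWI proteins that piRNAs guide, rose at 5 µM from 2.63, 4.78 and 3.92 to 5.92, 6.34 and 5.98, a change of at least 1.91-fold (fitted log2 difference 2.30 ± 0.46, adjusted p = 0.00584). Calls rest on the fitted difference, so a bound can fall under 2-fold. At 10 µM the values were 5.45, 5.06 and 4.67, all below the floor, and the difference from 5 µM did not pass (log2 -1.02 ± 0.46, adjusted p = 0.165). These signals came from probe set 239303_at. The other probe sets of the gene were not tested, with means of 3.46, 4.51 and 4.77 for 220686_s_at and of 1.09, 1.01 and 1.44 for 217421_at at 0, 5 and 10 µM. With the actin measure as a covariate the fitted difference of PIWIL2 at 5 µM was 2.02 and the call was lost (adjusted p = 0.264).

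STK31 and TDRD6 differed from these in that they were measured above the floor in every culture. STK31, a kinase with a Tudor domain found in germ cells, had log2 signals of 6.21, 5.98 and 6.51 in the vehicle, 7.75, 7.56 and 7.64 at 5 µM and 6.98, 6.31 and 6.80 at 10 µM. TDRD6, a Tudor-domain scaffold of the chromatoid body of spermatids, was at 5.99, 5.33 and 6.41, at 7.82, 7.87 and 7.79 and at 6.53, 5.66 and 6.83. For both genes every 5 µM value exceeded all values of the other groups, and the 0 and 10 µM values overlapped. STK31 was 2.67-fold higher at 5 µM than in the vehicle (adjusted p = 0.000833) and TDRD6 3.77-fold (adjusted p = 0.00273), from fitted log2 differences of 1.42 and 1.92. With the actin covariate the differences were 1.26 and 1.28 and both calls were lost (adjusted p = 0.107 and 0.282). TDRD6 was 2.81-fold lower at 10 µM than at 5 µM (adjusted p = 0.0201, but 0.0765 without the filter). STK31 was 1.94-fold lower there (adjusted p = 0.0149), which is under the required 2-fold.

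The remaining 7 genes of the piRNA group were not tested, and 6 of them lay below the median on all 9 arrays. These were DDX4, the helicase known as VASA that marks germ cells, TDRD1 and TDRD5, Tudor-domain scaffolds, ASZ1, an ankyrin-repeat protein of the mitochondria-associated granule, RNF17, a further Tudor-domain protein, and MOV10L1, the helicase that feeds precursors into piRNA production. DDX4 was at 0.26, 1.32 and -0.51 in the vehicle and at 2.04, 1.32 and 1.38 at 5 µM. MOV10L1 was at 1.49, 1.43 and 2.00 in the vehicle and at 4.41, 4.63 and 5.41 at 5 µM. The values of MOV10L1 did not overlap and it was called without the filter (adjusted p = 0.0377), but no fold is given because both groups lay under the floor. In its other probe set, 239257_at, the vehicle values (2.10, 2.10 and 3.91) and the 5 µM values (4.78, 4.73 and 3.17) overlapped. PIWIL1, a second PIWI protein, reached the median on 1 array only, at 10 µM (5.72).

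**Figure D3:**
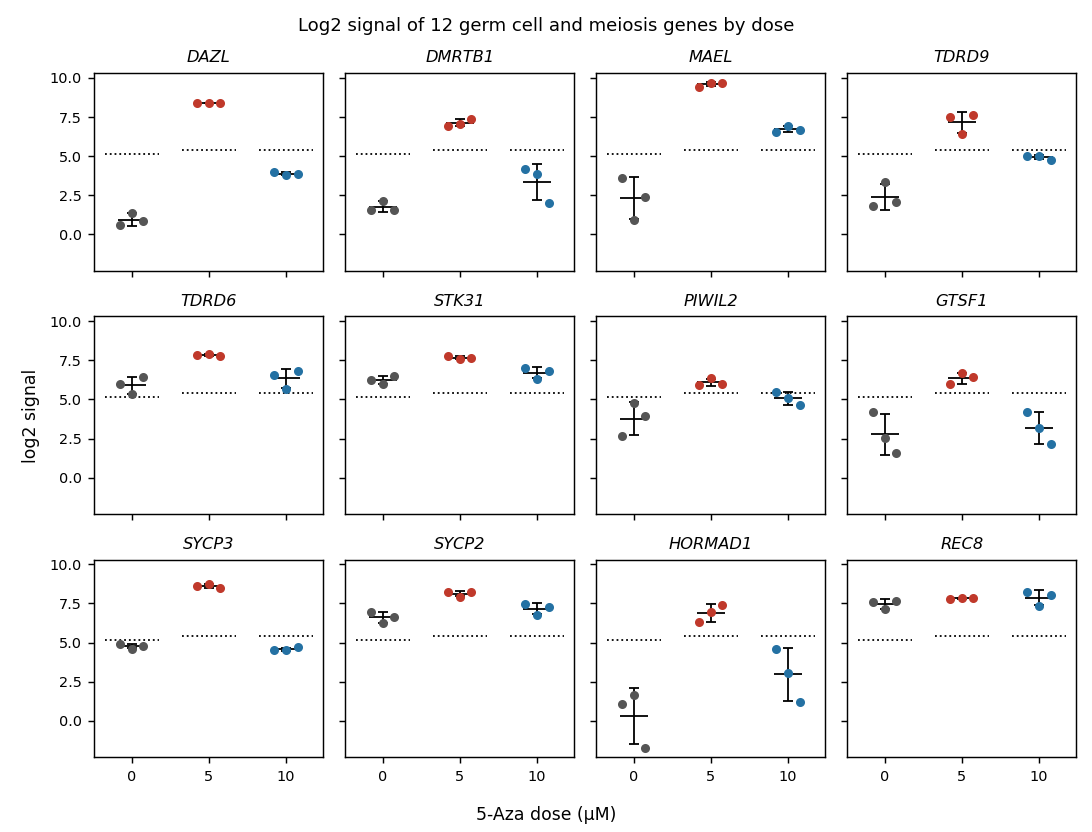
Log2 signal (y axis) of 12 germ cell genes against the 5-Aza dose in µM (x axis). Each point is 1 array, black bars give the mean and SD of each group, and the dotted line is the mean array median of the group. DAZL, SYCP3 and MAEL have narrow 5 µM groups at 8.39, 8.60 and 9.60, whereas REC8 stays between 7.12 and 8.22 at all doses.

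The synaptonemal complex and axis genes had 4 members on the array, of which 3 were tested and all 3 were higher at 5 µM, against 8.6% of all tested genes. SYCP3 and HORMAD1 entered the test only through their 5 µM signal, so this count is no support for a response of the group. SYCP3, a component of the lateral element on which meiotic chromosomes are folded, was at 4.91, 4.61 and 4.80 in the vehicle, at 8.60, 8.71 and 8.49 at 5 µM and at 4.49, 4.49 and 4.70 at 10 µM. It was at least 11.0-fold higher at 5 µM (limma, adjusted p = 5.18e-07) and dropped at least 9.06-fold from 5 to 10 µM (adjusted p = 1.3e-06). The 10 µM values overlapped those of the vehicle (difference -0.21 ± 0.12, adjusted p = 0.188). A second probe set of SYCP3, 241861_at, lay below the median on all 9 arrays, with means of 3.34, 3.31 and 4.10, and did not show this course.

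SYCP2, the partner of SYCP3 in the lateral element, was above the floor in every culture, at 6.94, 6.25 and 6.64 in the vehicle, 8.25, 7.93 and 8.21 at 5 µM and 7.46, 6.78 and 7.24 at 10 µM. Its 5 µM values exceeded all others, and the gene was 2.86-fold higher than in the vehicle (log2 difference 1.52, adjusted p = 0.00113). With the actin covariate the difference was 1.73 and did not pass (adjusted p = 0.0592). At 10 µM it was 1.95-fold lower than at 5 µM (adjusted p = 0.0212), and its difference from the vehicle was 0.55 ± 0.22 (adjusted p = 0.0823). SYCP2 also had probe set 237920_at, which lay below the median on every array and was not tested. Its means were 1.39, 2.11 and 2.23 at 0, 5 and 10 µM, and the values of the groups overlapped. HORMAD1, which loads onto unpaired chromosome axes, was the most scattered of the 3, with 1.07, 1.63 and -1.74 in the vehicle, 6.29, 6.97 and 7.41 at 5 µM and 4.60, 3.07 and 1.20 at 10 µM. It was at least 3.35-fold higher at 5 µM (adjusted p = 0.00147) and dropped at least 2.77-fold from 5 to 10 µM (adjusted p = 0.032, but 0.107 without the filter).

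SYCP1, the transverse filament that zips the paired axes together, did not share in this. It lay below the median on all 9 arrays, at 2.68, 0.93 and 3.64 in the vehicle, 1.07, 0.48 and 0.85 at 5 µM and 4.95, 4.32 and 4.41 at 10 µM. Without the filter it was called higher at 10 µM than at 5 µM (adjusted p = 0.0353), the one gene of the set called in that direction, and no fold is given because both groups were under the floor. In its other probe set, 216917_s_at, the 5 and 10 µM values overlapped, with means of 0.82, 0.05 and 1.61 at 0, 5 and 10 µM.

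Meiotic cohesin had 3 genes on the array. Only REC8 was tested, and it was not called in any comparison, while STAG3 and SMC1B were not tested. REC8, the cohesin subunit that holds sister chromatids through the first meiotic division, was well above the floor on all 9 arrays, at 7.57, 7.12 and 7.68 in the vehicle, 7.77, 7.85 and 7.85 at 5 µM and 8.22, 7.36 and 8.04 at 10 µM. Its difference at 5 µM was 0.37 ± 0.22 (SE, adjusted p = 0.239) and that between 10 and 5 µM 0.05 ± 0.22 (adjusted p = 0.903). The other probe set of REC8, 229536_at, lay below the median on all 9 arrays, with means of 2.42, 1.80 and 1.87 at 0, 5 and 10 µM. STAG3, the meiotic partner subunit, hovered around the floor and reached it on 4 of 9 arrays, at 4.64, 5.19 and 3.88, then at 5.50, 5.71 and 4.49, and at 10 µM at 3.99, 6.05 and 5.41. SMC1B, the meiotic form of the SMC1 subunit, was below the median on every array. Of 12 genes of mitotic cohesin, a list used for comparison, 11 were tested and 0 were called in any comparison by limma or by the methods' t-test. At an unadjusted p under 0.05, 2 of the 11 were lower at 5 µM than in the vehicle, 4 were higher at 10 µM than at 5 µM, and 3 were higher and 1 lower at 10 µM than in the vehicle.

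Of 5 recombination genes on the array only MEI1 was tested, and it was not called in any comparison. SPO11, which makes the DNA breaks that start meiotic recombination, DMC1, the meiotic strand exchange protein, TEX15, which is needed for break repair and transposon silencing, and SPATA22, a single-strand DNA-binding partner, were below the median on all 9 arrays. MEI1, which is needed to form the breaks, was close to the floor at all doses, with 5.36, 5.30 and 5.50 in the vehicle, 5.01, 5.10 and 4.91 at 5 µM and 5.06, 5.54 and 5.78 at 10 µM. Its 5 µM values were below all vehicle values, and the difference of -0.38 ± 0.17 did not pass (adjusted p = 0.119). Another probe set of MEI1, 1554208_at, went the other way, with means of 3.79, 5.65 and 5.97 at 0, 5 and 10 µM and no call at 5 µM (adjusted p = 0.217, probe sets as unit).

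The last group held TEX101, a surface protein of germ cells and sperm, and TEX14, which keeps the bridges between dividing germ cells open. TEX101 was at 2.98, 3.39 and 2.48 in the vehicle, at 5.77, 5.12 and 4.93 at 5 µM and at 4.43, 3.38 and 4.56 at 10 µM. Its 5 µM values lay above all others, 1 of them reached the median, and without the filter the gene was called higher at 5 µM (adjusted p = 0.0102). TEX14 lay below the median on all 9 arrays, at 0.48, 0.68 and 1.81 in the vehicle and 3.56, 4.08 and 3.70 at 5 µM.

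Promoter sequence was a property that the list did not use. RefSeq promoters (GRCh38.p14, 250 bases before to 50 after the start) were at hand for 31 of the 35 genes, without HORMAD1, PIWIL2, TEX14 and TEX15. Each gene was read from 1 window, so any other start of a gene, and its CpG content, was not examined. The windows of the 31 held a median of 25 CpG (range 0 to 60), against 22 for 15384 genes on the array and 26 for the 9613 tested genes in the table. Among the 9 genes higher at 5 µM in the table the median was 28 (8 to 60), among the 21 other germ cell genes on the array 21 (1 to 44), and among all 784 genes higher at 5 µM it was 21. The ranges overlap, and these counts are a description. DNA methylation itself was not analysed here.

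The following 6 windows are examples of CG density among genes called higher at 5 µM and genes that were not tested. Each is written 5′ to 3′ on the strand of its gene with every CG in capitals. DAZL (chr3:16605374-16605673, minus strand) held 33 CG, MAEL (chr1:166975332-166975631, plus strand) 60, SYCP3 (chr12:101739413-101739712, minus strand) 24 and DMRTB1 (chr1:53459149-53459448, plus strand) 8, and all 4 were called higher. BOLL (chr2:197786157-197786456, minus strand) with 32 CG and DDX4 (chr5:55766635-55766934, plus strand) with 1 were not tested, and other starts of DDX4 were not examined.
DAZL: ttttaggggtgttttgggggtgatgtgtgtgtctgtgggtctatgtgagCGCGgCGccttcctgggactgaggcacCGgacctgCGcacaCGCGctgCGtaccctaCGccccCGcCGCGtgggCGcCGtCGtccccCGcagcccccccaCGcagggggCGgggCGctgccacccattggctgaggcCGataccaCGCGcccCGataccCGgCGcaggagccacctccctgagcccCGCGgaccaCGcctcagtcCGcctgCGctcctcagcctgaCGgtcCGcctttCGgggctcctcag
MAEL: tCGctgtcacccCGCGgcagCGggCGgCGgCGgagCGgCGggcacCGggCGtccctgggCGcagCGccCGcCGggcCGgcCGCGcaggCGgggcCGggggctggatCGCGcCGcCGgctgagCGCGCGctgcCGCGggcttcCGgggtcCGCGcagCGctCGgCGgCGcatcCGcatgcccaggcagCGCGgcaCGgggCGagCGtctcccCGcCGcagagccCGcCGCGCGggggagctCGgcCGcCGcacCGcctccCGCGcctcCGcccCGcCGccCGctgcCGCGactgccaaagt
SYCP3: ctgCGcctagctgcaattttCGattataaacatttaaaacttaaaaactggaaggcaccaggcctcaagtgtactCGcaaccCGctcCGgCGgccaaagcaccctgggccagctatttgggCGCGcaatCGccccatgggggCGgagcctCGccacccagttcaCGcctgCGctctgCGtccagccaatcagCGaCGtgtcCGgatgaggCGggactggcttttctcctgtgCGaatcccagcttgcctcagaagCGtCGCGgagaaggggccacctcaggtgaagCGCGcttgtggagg
DMRTB1: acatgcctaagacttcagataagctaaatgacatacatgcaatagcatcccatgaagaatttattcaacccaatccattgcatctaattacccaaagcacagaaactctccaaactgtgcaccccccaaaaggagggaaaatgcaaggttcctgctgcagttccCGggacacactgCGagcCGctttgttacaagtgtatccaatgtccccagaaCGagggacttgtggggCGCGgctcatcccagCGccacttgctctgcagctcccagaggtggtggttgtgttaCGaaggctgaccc
BOLL: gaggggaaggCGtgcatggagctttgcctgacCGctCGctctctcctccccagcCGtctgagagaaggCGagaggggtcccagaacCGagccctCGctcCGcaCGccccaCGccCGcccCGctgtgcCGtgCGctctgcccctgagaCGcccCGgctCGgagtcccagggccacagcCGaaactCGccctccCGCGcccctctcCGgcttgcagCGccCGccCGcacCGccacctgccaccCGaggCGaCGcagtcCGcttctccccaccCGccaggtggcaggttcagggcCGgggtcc
DDX4: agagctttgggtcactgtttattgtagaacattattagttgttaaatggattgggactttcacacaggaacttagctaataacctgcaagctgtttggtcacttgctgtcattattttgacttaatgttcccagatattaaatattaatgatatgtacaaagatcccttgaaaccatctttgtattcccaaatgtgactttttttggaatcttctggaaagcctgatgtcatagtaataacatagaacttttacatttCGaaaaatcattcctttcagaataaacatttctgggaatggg

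The MAEL window held more CG than 99.9% of the 27305 promoters of the table, and that of DAZL more than 83%. GTSF1 with 10 CG was, like DMRTB1, called higher at 5 µM from a window under the array-wide median of 22. SYCP3 with 24 lay between the median of genes on the array and that of tested genes. Of the genes below the floor on all arrays, MOV10L1, which was called higher without the filter, had 44 CG and SMC1B 34.

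Short motifs bound by known regulators of germ cell genes were counted on both strands. TCCCGC, a core of E2F-type sites, was found in 16 of the 31 windows (51.6%), against 26.8% of all promoters of the table, 35.3% of genes on the array and 41.7% of tested genes. Among the genes with a rise it was in 5 of 9 and among the other genes on the array in 11 of 21. CACGTG, the E-box read by MAX and its partners, was in 4 of 31 (12.9%), against 7.43% of all promoters, 8.90% of genes on the array and 10.3% of tested genes, and STK31 and TDRD1 each held it at 2 places. GGGCGG, a GC box, was in 20 of 31 (64.5%), against 44.6% of all promoters and 69.5% of tested genes. GGGCGG and TCCCGC read on opposite strands can share bases, and CACGTG is its own reverse complement. A match describes the letters of these windows and says nothing of binding.

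**Figure D4:**
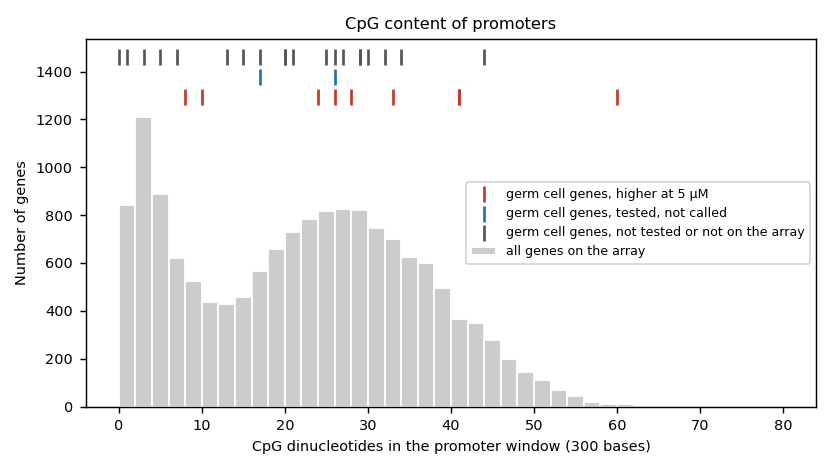
Number of genes (y axis) by CpG dinucleotides in the 300-base promoter window (x axis), with the genes on the array as grey bars in bins of 2. Ticks above the bars mark the 31 germ cell genes in the table by their result at 5 µM. The 9 genes higher at 5 µM spread from 8 to 60 CpG and the others from 0 to 44.

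Other germ cell genes were taken from 4 further lists. Of 109 entries 96 were on the array and 30 were tested, and 11 were higher at 5 µM than in the vehicle, 5 lower at 10 µM than at 5 µM and 7 higher at 10 µM than in the vehicle, with 0 called in the opposite directions. Over all tested genes the shares were 8.6%, 2.08% and 6.08%. Some of the 30, such as TDRD12 and GPAT2, entered the test only through their 5 µM signal, so these counts are no support for a response of the lists. Most of the calls at 5 µM came from further piRNA pathway genes, of which 13 were tested and 6 higher. TDRD12, a Tudor-domain helicase, was below the floor in the vehicle at 2.40 ± 1.02 (SD, n = 3) and stood at 7.73 ± 0.27 at 5 µM and 5.05 ± 1.43 at 10 µM. GPAT2, an acyltransferase family member needed for piRNA production, went from 2.52 ± 1.35 to 6.68 ± 0.15 and was at 3.18 ± 1.06 at 10 µM. Both were called higher at 5 µM (adjusted p = 0.000725 and 0.00211) and lower at 10 µM than at 5 µM (adjusted p = 0.0353 and 0.0133). MYBL1, the transcription factor that drives piRNA precursor genes in the testis, was at 3.31 ± 1.82, 6.66 ± 0.10 and 6.27 ± 0.37, and its signal at 10 µM was still called higher than in the vehicle (adjusted p = 0.0156).

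Of 6 tested genes of meiotic recombination and synapsis outside the set, 2 were higher at 5 µM, TEX19 (log2 difference 2.23 ± 0.18, SE) and TRIP13. TRIP13, an ATPase that also acts in the mitotic checkpoint, was above the floor in the vehicle at 8.08 and stood at 9.22 at 5 µM. Primordial germ cell and oocyte genes had 2 of 7 tested genes higher, SALL4 and NANOS1, and spermatid genes 1 of 4, ODF2, a fibre protein that also belongs to centrosomes.

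The genes known to repress germ cell genes were all expressed, with 21 of 21 on the array tested. At 5 µM 2 of the 21 were higher, a share near the 8.6% of all tested genes. They were UHRF1, which guides DNMT1 to replicated DNA (log2 difference 1.31, adjusted p = 1.94e-05), and the de novo methyltransferase DNMT3B (1.18, adjusted p = 0.00356), and both were also higher at 10 µM. DNMT1 itself was at 8.61, 8.88 and 9.27 at 0, 5 and 10 µM, under 2-fold in every comparison. Its log2 difference of 10 µM from the vehicle was 0.67 (limma, adjusted p = 0.00199) and from 5 µM 0.39 (adjusted p = 0.0321). E2F6 differed by 0.21 ± 0.12 at 5 µM (adjusted p = 0.203). Between 10 and 5 µM, 0 of the 21 were called by limma or by the methods' t-test, and 3 had an unadjusted p under 0.05. Against the vehicle, 7 were higher and 3 lower at 5 µM at an unadjusted p under 0.05, and 7 higher and 1 lower at 10 µM. A part of these genes in the germ cell results was not tested. A list of markers of testis somatic cells had 14 genes on the array. Of these 3 were tested and 0 called by limma or by the methods' t-test (at an unadjusted p under 0.05, 1 was lower at 5 µM and 1 at 10 µM than in the vehicle), and the list's summed linear signal was 3284 to 3613 in the vehicle, 2369 to 2886 at 5 µM and 2357 to 2585 at 10 µM. This sum was carried by SOX9, with log2 means of 11.61, 11.14 and 11.03 at 0, 5 and 10 µM, and so describes that gene rather than the list. Among 7 blood cell markers with a probe set, 3 were tested and 0 called by either test (at an unadjusted p under 0.05, 1 was lower at 5 µM and 1 at 10 µM than in the vehicle, and 2 were higher at 10 µM than at 5 µM), with sums of 12876 to 13755, 8952 to 10152 and 10795 to 11808. These sums were likewise carried by LYZ, with log2 means of 13.68, 13.20 and 13.44 at 0, 5 and 10 µM. The part of either list was not tested.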

How the data were processed

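Total RNA of 9 HT-29 cultures was hybridised to 1 array each, and the groups were taken from the sample titles. The deposited values are log2 signals of 54675 probe sets. The submitters' notes name RMA and affy 1.14.2, but the values have the form of MAS 5.0 signals (log2 of multiples of 0.1, a minimum of -3.322, and a 2% trimmed mean of 250.0 on every array), so dim signals scatter widely. No further scaling was applied.

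Probe sets were named with the platform table and RefSeq symbols (41091 with 1 gene, 1801 with several and 11721 with none), and 6 with a missing value were left out. Linear models with 1 mean per dose were fitted to all 9 arrays in limma (version 3.58.1, R version 4.3.3), with eBayes, two-sided p-values and Benjamini-Hochberg adjustment over all tested genes, after tests on simulated data. For bounds, values below the array median were raised to it. The methods' t-test is a per-gene test that the study names beside the SAM and eBayes algorithms. The study included it as a control method known to do relatively poorly on arrays. Every gene of the set is named, and from each other list up to 4 called genes. The set, the other lists (also mitotic cohesin, repressors and cell markers) and the tests were chosen with earlier results of these data known. The alternatives were other filters, probe set rules, scalings, fits, an actin covariate, a replicate block and left-out arrays. Figures used matplotlib 3.10.9 in Python 3.11.15.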

Additional observations from a re-analysis of the deposited data

How the results depend on the processing

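The 11 rises at 5 µM against 0 µM were 7 with actin integrity as a covariate (the actin covariate), which cannot be told apart from dose. They stayed at 11 when any single array was left out (range 11 to 11). At 10 µM against 5 µM the 8 lower genes became 3 without a filter, 3 by the methods' t-test, 2 with the actin covariate and 3 without 10 µM replicates 2 and 3 together, and leaving out 1 array gave 3 (without 5 µM replicate 3) to 10. No filter gave 1 higher gene there, SYCP1. At 10 µM against 0 µM the 4 higher genes became 1 with low signals raised to the array median and 0 with the actin covariate, with a range of 3 to 5 when 1 array was left out. Among the other germ cell genes, the 5 lower at 10 µM against 5 µM became 2 without a filter, and the 7 higher at 10 µM against 0 µM became 3 without a filter and 4 after quantile normalization. The mean number of genes below the floor at 0, 5 and 10 µM, which was 28.7, 20.7 and 27.7, became 31.0, 23.7 and 29.3 with the floor at the 60th percentile, and 31.0, 23.7 and 30.3 with the mean of probe sets.

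Signs turned for single genes that were not called. MEI1 at 5 µM against 0 µM became 0.023 with low signals raised. REC8 at 10 µM against 5 µM became -0.054 with the actin covariate and ranged from -0.12 (without 10 µM replicate 1) to 0.30 when 1 array was left out. At 10 µM against 0 µM, SYCP3 became 0.28 with the mean of probe sets and 0.28 with low signals raised, TDRD6 -0.71 with the actin covariate, and GTSF1 -0.69 with array weights and a range of -0.19 (without 0 µM replicate 3) to 1.10 when 1 array was left out. MEI1 there became -0.19 after quantile normalization, -0.21 with equal array medians, -0.75 with the actin covariate, a range of -0.088 (without 10 µM replicate 3) to 0.27 when 1 array was left out, and -0.33 without 10 µM replicates 2 and 3 together. The causes of these changes were not tested.

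Replicate numbers are shared between the groups, but the deviations of same-numbered arrays correlated at -0.0894 to 0.179 over 9 pairs, so the samples share only a number. With the replicate number as a block the counts were 11 higher, 8 lower and 4 higher in the 3 comparisons, as without it.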
